A study of Homo sapiens with 6 samples.

Results

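The FOSL2 and JUNB regions of human chromosome 4 in HaCaT cells are described here. They are all rows of the 2 deposited region lists on that chromosome (build hg38): 3105 of 75704 FOSL2 regions and 1200 of 40061 JUNB regions, or 4305 of 115765 regions in all. The chromosome was chosen because a low share of its FOSL2 regions overlaps a JUNB region, so the overlap values below describe the choice and carry no test. Binding was measured by ChIP-seq, which sequences DNA pulled down with an antibody to a protein, in HaCaT, an immortalised line of human skin keratinocytes. The FOSL2 group (antibody CST 19967 lot 2) and the JUNB group (antibody Active Motif 39549 lot 34708001) had 3 libraries each. The labels name no treatment, and all libraries came from crosslinked cells and sonicated nuclei by ChIPmentation, a protocol that tags bead-bound DNA with a transposase. Each factor had 1 deposited list that stood for its 3 libraries, so no value had a spread between replicates, no depth per library was known, and no difference below was tested. Intervals are 95% intervals (Wilson for shares, Newcombe for differences of raw shares, exact Poisson for counts) and cover counting error only. For differences from an expected share, as at equal fold or height, the interval is the Wilson interval of the observed share. The expected share is there taken as fixed, so such intervals are too narrow, most of all between the arms. Ratios of counts per Mb likewise take the value of the other autosomes as fixed. No RNA was measured, so markers of the cell type were not checked.

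FOSL2 and JUNB are subunits of AP-1, a family of basic leucine zipper transcription factors. Members of the FOS group, to which FOSL2 belongs, bind DNA as dimers, mainly with a JUN partner such as JUNB, whereas JUN proteins can also pair with one another or with ATF proteins. The dimers recognise the palindrome TGACTCA, and ATF-containing dimers favour the longer TGACGTCA. In keratinocytes AP-1 takes part in differentiation, wound repair and the response to growth factors and inflammation.

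Promoter sequences of chromosome 4 show what lay under some of the strongest regions. The 250 bases before the start site are given from RefSeq GRCh38.p14, in the direction of the gene, and capitals mark TGANTCA (which includes TGACTCA and, on the other strand, TGAGTCA) and TGACGTCA. PAICS and TMPRSS11F are shown because they had the highest JUNB fold enrichment among promoters with a summit of both factors, SGMS2 because it had the fourth highest and holds TGACTCA, SMAD1 because it had the strongest JUNB summit without an overlapping FOSL2 region, and CXCL8 as a chemokine promoter chosen after its values were seen.
PAICS (chr4:56410257-56410506, plus strand): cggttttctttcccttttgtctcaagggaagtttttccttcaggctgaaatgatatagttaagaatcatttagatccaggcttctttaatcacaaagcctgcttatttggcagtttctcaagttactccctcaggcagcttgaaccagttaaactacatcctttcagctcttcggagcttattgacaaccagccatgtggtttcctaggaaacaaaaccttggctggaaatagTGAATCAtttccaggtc
TMPRSS11F (chr4:68129870-68130119, minus strand): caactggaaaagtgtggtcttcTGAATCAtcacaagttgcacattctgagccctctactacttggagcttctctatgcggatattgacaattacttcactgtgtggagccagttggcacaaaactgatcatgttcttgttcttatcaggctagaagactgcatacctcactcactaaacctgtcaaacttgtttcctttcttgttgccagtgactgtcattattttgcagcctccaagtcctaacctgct
SGMS2 (chr4:107824682-107824931, plus strand): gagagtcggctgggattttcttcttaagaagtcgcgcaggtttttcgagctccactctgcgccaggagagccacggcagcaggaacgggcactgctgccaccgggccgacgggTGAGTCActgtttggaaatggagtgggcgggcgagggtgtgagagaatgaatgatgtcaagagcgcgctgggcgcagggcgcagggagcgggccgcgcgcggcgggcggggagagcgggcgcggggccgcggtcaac
SMAD1 (chr4:145481603-145481852, plus strand): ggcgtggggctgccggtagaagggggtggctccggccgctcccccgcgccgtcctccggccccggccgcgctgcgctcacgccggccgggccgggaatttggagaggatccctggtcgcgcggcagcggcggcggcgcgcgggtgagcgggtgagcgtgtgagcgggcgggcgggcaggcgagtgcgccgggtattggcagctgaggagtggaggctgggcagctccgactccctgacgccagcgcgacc
CXCL8 (chr4:73740319-73740568, plus strand): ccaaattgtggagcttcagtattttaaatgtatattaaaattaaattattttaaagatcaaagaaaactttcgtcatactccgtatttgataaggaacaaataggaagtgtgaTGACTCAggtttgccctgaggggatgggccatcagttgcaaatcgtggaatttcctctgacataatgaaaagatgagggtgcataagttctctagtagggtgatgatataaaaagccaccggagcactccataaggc

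In the SGMS2 promoter (a sphingomyelin synthase gene) the motif began 137 bases before the start, the FOSL2 summit lay 128 and the JUNB summit 85 bases before it. In the CXCL8 promoter (the neutrophil attractant interleukin 8) the motif also began 137 bases before the start, with the FOSL2 summit 117 and the JUNB summit 111 bases before it. The PAICS promoter (an enzyme of purine synthesis) held TGAATCA 17 bases before the start, with summits at 38 (FOSL2) and 99 bases (JUNB). The TMPRSS11F promoter (a serine protease gene of squamous epithelium) held TGAATCA 228 bases before the start, with summits at 176 (FOSL2) and 155 bases (JUNB). The SMAD1 promoter (a mediator of BMP signalling) held none of these letters in this window, and its JUNB summit lay 103 bases before the start. CLCN3 and UVSSA, which the same rule selected, also held none before the start and are not printed.

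The motifs were counted over 300 bases, 250 before and 50 after each start, on both strands. Of the 35 chromosome 4 promoters with a summit of both factors, 37.1% (95% Wilson interval 23.2 to 53.7) held TGACTCA. The share was 15.7% (9.01 to 26.0) of 70 promoters with a FOSL2 summit alone, 1.96% (0.347 to 10.3) of 51 with a JUNB summit alone, and 4.68% (3.73 to 5.87) of 1516 with neither. All 33725 autosomal promoters of the table held it in 4.91% of cases. The interval for promoters with a JUNB summit alone holds that value. TGACGTCA was held by 11.4% of promoters with both summits, 10.0% with a FOSL2 summit alone, 11.8% with a JUNB summit alone, 1.65% with neither and 1.87% of all. TGANTCA was held by 48.6% of promoters with both summits, 14 of the 70 with a FOSL2 summit alone, 3.92% with a JUNB summit alone, 7.45% with neither and 7.67% of all. Promoters of neighbouring genes can share bases, a match is no proof of a bound site, and 657 of the 770 protein-coding genes of chromosome 4 had a promoter in the table.

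Regions of both factors were sparse on chromosome 4. It had 16.3 FOSL2 regions per Mb (15.8 to 16.9), against 26.3 on the other 21 autosomes pooled, a ratio of 0.620 (0.599 to 0.642), and only chromosome 21 had fewer, at 15.3 per Mb. It had 6.31 JUNB regions per Mb (5.96 to 6.68), against 14.2 on the others, a ratio of 0.444 (0.419 to 0.470), the lowest of the 22 autosomes. FOSL2 regions covered 10.9 kb per Mb of chromosome 4 and 17.9 kb per Mb of the others, and JUNB regions covered 3.67 and 8.49 kb per Mb in the same order. Neighbouring FOSL2 summits lay a median of 27.4 kb apart on chromosome 4 and 16.6 kb apart elsewhere. For JUNB these gaps were 51.4 kb on chromosome 4 and 24.6 kb elsewhere, and both of its gaps were the longest of the 22 autosomes. On chromosome 21, which had fewer FOSL2 regions per Mb, neighbouring FOSL2 summits lay a median of only 18.3 kb apart. Widths differed little, with medians of 640 bp on chromosome 4 and 643 bp on the others for FOSL2, and 557 bp and 568 bp for JUNB.

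The 2 factors overlapped unevenly on chromosome 4. Of its FOSL2 regions, 1021 shared at least 1 bp with a JUNB region, which is 32.9% (31.3 to 34.6) against a background of 41.4% over all autosomes and 41.8% over the other 21, a difference of -8.87 percentage points (-10.54 to -7.16). This was the lowest share of the 22 autosomes, below chromosome 6 at 39.1%. The JUNB list gave the opposite order: 1026 of its 1200 regions touched a FOSL2 region, which is 85.5% (83.4 to 87.4) against a background of 78.3% and 78.1% over the other 21. The difference of 7.38 points (5.24 to 9.31) made it the highest JUNB share of the 22. Chromosome 4 thus had 2084 FOSL2-only regions and 174 JUNB-only regions. For every JUNB region there were 1.65 to 5.44 FOSL2 regions in its full 5 Mb windows. The gap to the other autosomes was present under both stricter definitions of sharing for FOSL2, at -9.51 points with a reciprocal overlap of 50% and -7.22 with summits within 100 bp. For JUNB the reciprocal overlap lowered it to 1.41 points (-1.34 to 4.05).

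**Figure D1:**
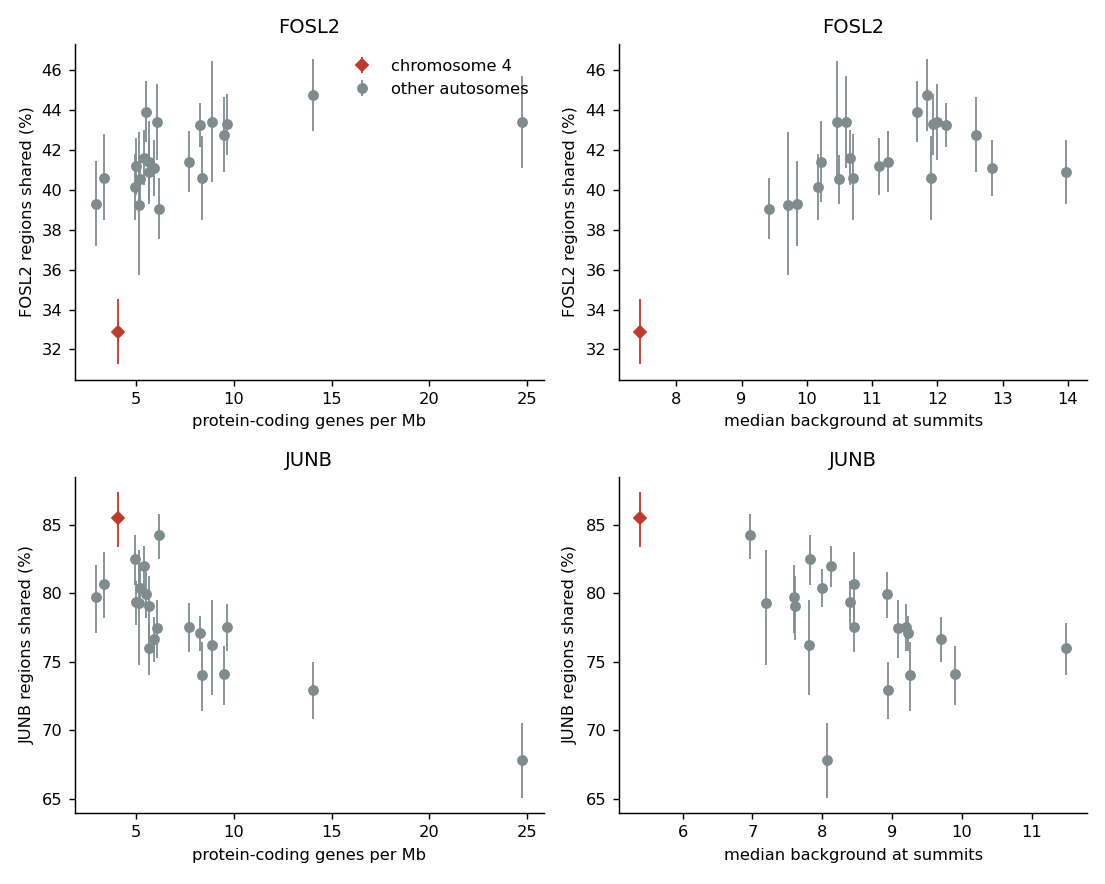
Share of FOSL2 regions (top) and JUNB regions (bottom) that overlap a region of the other list, for each autosome, against protein-coding genes per Mb (left) and the median background at summits in pileup units (right). Bars are 95% Wilson intervals; chromosome 4, the red diamond, has the lowest background for both factors, the lowest FOSL2 share (32.9%) and the highest JUNB share (85.5%).

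The regions that chromosome 4 did have carried high values in the deposited fold enrichment, the ratio of signal to background in column 7, which is the authors' own value. The median FOSL2 fold was 6.59 (quartiles 4.43 and 9.74) on chromosome 4 and 5.51 (3.83 and 7.97) on the others, a log2 difference of 0.26. The median JUNB fold was 5.81 (4.40 and 7.77) on chromosome 4 and 4.74 (3.60 and 6.44) on the others, a log2 difference of 0.29. Both medians were the highest of the 22 autosomes. Among the 10000 FOSL2 regions of highest fold, the density on chromosome 4 was higher than on the others, with a ratio of 1.29 (1.20 to 1.38) in place of 0.620. The same cut gave a JUNB ratio of 0.728 (0.664 to 0.797).

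The fold and the p-value of a region together fix the 2 quantities they were made from, the pileup height at the summit and the background it was compared with. With fold read as height plus 1 over background plus 1, and p as the upper tail of a Poisson distribution, every -log10 p was recovered within 0.005, except for 2 FOSL2 regions, neither on chromosome 4. The recovered values are derived ones in the pileup units of each list and their levels were compared within a list only. Heights on chromosome 4 were low: a median of 62 for FOSL2, against 70 on the others, and 39 for JUNB, against 46, each the lowest of the 22 autosomes. Backgrounds were low as well, with a median of 7.44 for FOSL2 on chromosome 4, against 11.4 on the others, and 5.39 for JUNB, against 8.67. The lowest background in each list, its floor, was 7.35 for FOSL2 and 5.37 for JUNB. Of the chromosome 4 FOSL2 regions 49.2% lay at the floor, against 15.5% on the others, and of its JUNB regions 49.9%, against 6.36%. Both medians were the lowest and both shares at the floor the highest of the 22 autosomes. In both lists chromosome 6 had the next lowest median background (9.42 for FOSL2, 6.97 for JUNB) and chromosome 9 the highest (14.0 and 11.5). The copy number of each chromosome in these cells was not measured here. Its part in density, height, background and sharing was not tested. The higher fold on chromosome 4 stood beside a lower height and a lower background. Within the lists background is higher where height is higher, so these values are not independent of each other.

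Sharing compared at equal fold gave a larger gap than the raw shares. FOSL2 regions were put into 10 equal classes of fold (deciles) over the autosomes, and the share expected on chromosome 4 was taken from the other autosomes' share in each class. The expected share was 50.3%, against the 32.9% found, a difference of -17.5 points, the lowest of the 22 autosomes, with chromosome 6 next at -7.95. In the fifth decile of fold, 8.51% (5.95 to 12) of the chromosome 4 regions were shared, against 32.2% of the others. In the seventh it was 24.7% (20.1 to 29.9), against 53.8%, and in the highest 73.8% (70.5 to 76.9), against 85.5%. The intervals of chromosome 4 and of the others did not overlap from the second decile up. For JUNB the expected share was 85.6% and the difference -0.09 points (-2.19 to 1.79).

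At equal recovered height the order of sizes changed. The expected FOSL2 share was then 36.3% and the difference -3.44 points (-5.07 to -1.76), the second lowest, with chromosome 9 at -3.62. In the eighth decile of height 73.4% (68.5 to 77.9) of chromosome 4 regions were shared, against 73.7% of the others, and in the highest 94.3% (88.6 to 97.2), against 94.8%. The intervals did not overlap in the third to the fifth decile: in the third, 3.31% (1.94 to 5.58) of chromosome 4 regions, with heights of 37 to 45, were shared, against 10.46%. For JUNB the expected share at equal height was 74.2%, and chromosome 4 lay 11.3 points above it, the highest of the 22. In the lowest decile of JUNB height 61.5% (53.4 to 69.1) of the chromosome 4 regions were shared, against 38.5%. With height and background both matched, the differences were -0.95 points (-2.58 to 0.72) for FOSL2, the third lowest, and 4.42 points (2.31 to 6.30) for JUNB, still the highest. The match on background was partial, since it used 5 classes and regions at the floor cannot be told apart by background. Of the FOSL2 regions 49.2% lay at the floor on chromosome 4, against 15.5% elsewhere, and the lowest class also held regions above it. The part of background in the sharing was not tested beyond these values.

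**Figure D2:**
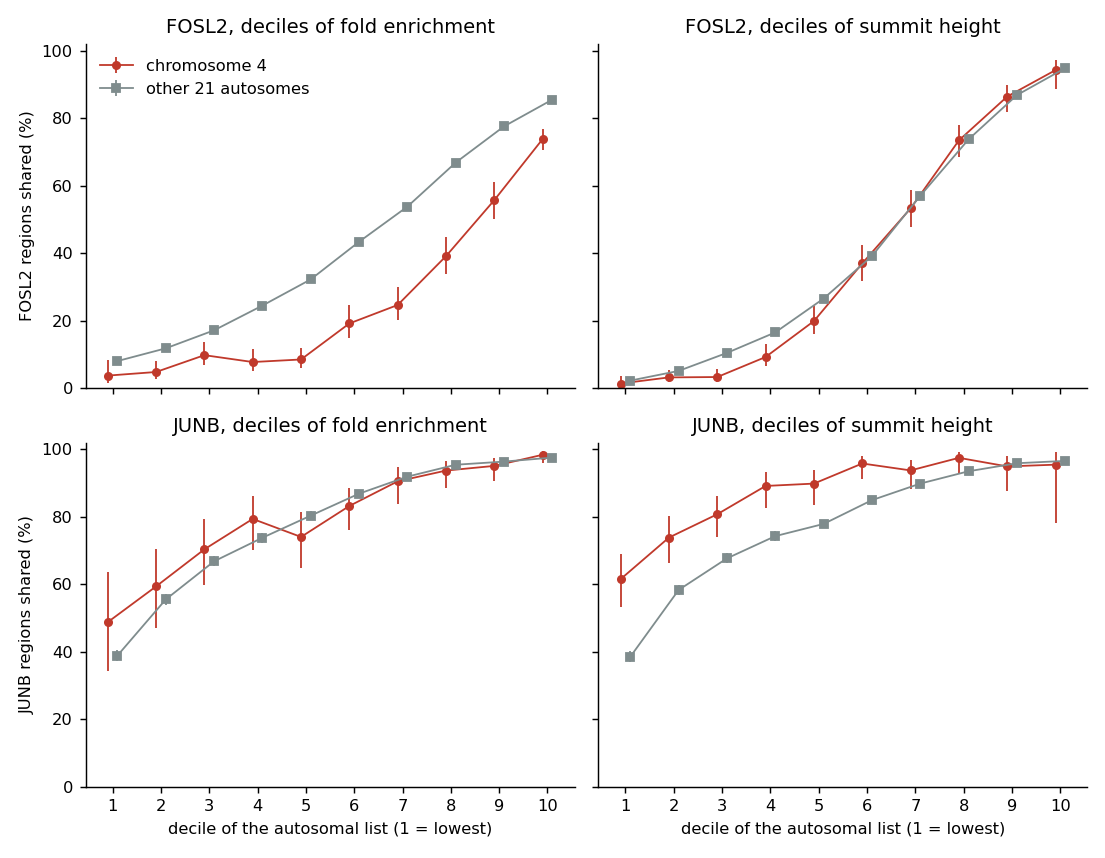
Share of FOSL2 regions (top) and JUNB regions (bottom) that overlap the other list, by decile of the deposited fold enrichment (left) and of the recovered summit height (right), for chromosome 4 (red circles) and the other 21 autosomes (grey squares). Bars are 95% Wilson intervals; for FOSL2 the chromosome 4 line lies below the grey line across fold and close to it in the upper deciles of height (73.4% against 73.7% in the eighth), and for JUNB it lies above the grey line in low deciles of height.

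Windows of 5 Mb were also compared, grouped by their median FOSL2 background alone, with no match of height or fold. In the 20 chromosome 4 windows with a median FOSL2 background under 7.5, 30.9% (28.6 to 33.3) of the FOSL2 regions were shared, against 27.5% (25.5 to 29.6) in 46 windows of 17 other chromosomes. In the 16 windows with a median of 7.5 to 9, the share was 34.9% (32.5 to 37.3), against 33.2% (31.9 to 34.4) in 63 windows elsewhere. Only 3 chromosome 4 windows had a median over 9, with a share of 32.3% (25.4 to 40.0), against 42.9% (42.5 to 43.3) in 416 windows elsewhere. Of these 3, window 39 is the short end of the chromosome with 1 FOSL2 region, and windows 30 and 35 had medians of 9.345 and 9.02, close to the border. At like background the chromosome 4 windows held more regions in the lowest class, with 72.6 FOSL2 regions a window, against 39.9 elsewhere. The classes were filled unequally: 3 of its 39 windows had a background over 9, against 416 of 525 elsewhere.

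**Figure D3:**
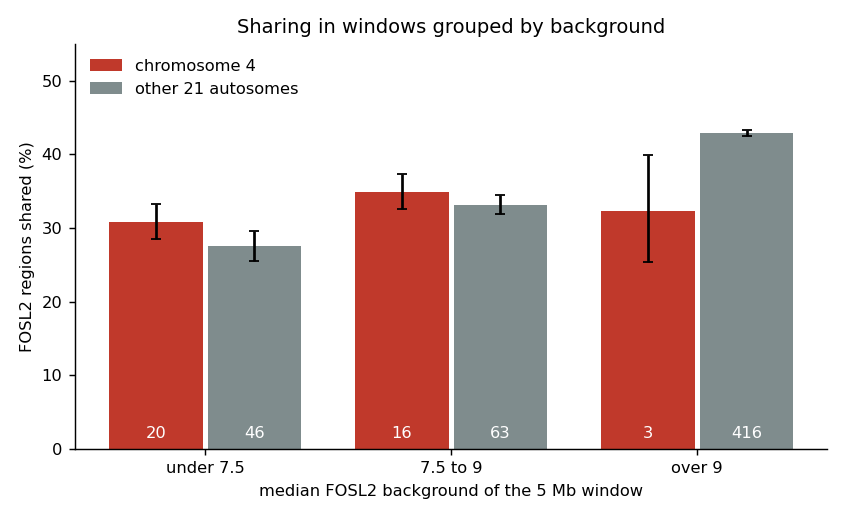
Share of FOSL2 regions that overlap a JUNB region in 5 Mb windows grouped by their median FOSL2 background in pileup units, for chromosome 4 (red, left of each pair) and the other 21 autosomes (grey). Bars are 95% Wilson intervals over regions and white numbers count windows; below 9 the chromosome 4 bars (30.9% and 34.9%) are not lower than their neighbours (27.5% and 33.2%).

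Pairs of overlapping regions on chromosome 4 had close summits. The median distance between the FOSL2 and JUNB summits was 28 bp (quartiles 10 and 59) over 1021 pairs, against 31 bp (11 and 64) over 29496 pairs elsewhere, and 69.2% lay within 50 bp, against 66.9%. The median log2 ratio of JUNB height to FOSL2 height was -1.55 on chromosome 4 and -1.33 elsewhere, the lowest of the 22 autosomes. Since the lists have separate scales, this ratio is read only between chromosomes. Across pairs the log2 folds of the 2 factors had a Pearson correlation of 0.61 on chromosome 4 and 0.72 elsewhere. All pairs come from the same libraries, and how far the FOSL2 and JUNB backgrounds of a pair go together was not tested.

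Shared and unshared regions of chromosome 4 differed in their values. Shared FOSL2 regions had a median fold of 10.15, a median height of 130 and a median background of 11.9, and FOSL2-only regions had 5.26, 46 and 7.35. Elsewhere shared FOSL2 regions had a median height of 141 and a background of 16.8, and FOSL2-only regions 47 and 9.07. Shared JUNB regions had a median fold of 6.14 and height of 42, and the 174 JUNB-only regions 4.24 and 28.

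The 5 shared regions of highest FOSL2 fold lay 82663 bp or more from the nearest protein-coding gene end. In this paragraph strong means high in fold, and an order by height would differ. The highest FOSL2 fold of the chromosome, 16.4 with a height of 172, was at chr4:189143132-189143947, 797458 bp from the nearest protein-coding gene end, that of FRG1, and its JUNB partner had a fold of 12.7. The next had folds of 16.3, 16.2, 15.9 and 15.9, and their nearest gene ends were those of PABPC4L at 82663 bp, TENM3 at 513704 bp, INTU at 782504 bp and CCSER1 at 153340 bp, in the same order. None of these 5 lay inside a protein-coding gene. The region nearest to INTU had the greatest height of the 5, with a FOSL2 height of 277 and a JUNB partner of fold 14.7 and height 112, the summits 11 bp apart. A shared site only 6143 bp from an end of C4orf36 was higher, with a FOSL2 height of 292 at a fold of 12.7. The partner of the region nearest to CCSER1 had a JUNB fold of only 5.02. Strong FOSL2 regions without any JUNB overlap also occurred: the highest lay inside ANKRD17 (fold 14.8, height 170), and the next lay 11733 bp from an end of GSTCD (14.6), 507737 bp from an end of LOC124900844 (14.5) and inside MRPL1 (14.3) and FSTL5 (14.2). The strongest JUNB-only region was the SMAD1 promoter printed above, at chr4:145481180-145482139, with a fold of 10.6 and a height of 113. It was followed by regions 32399 bp from an end of MYOZ2 (9.70), inside TBC1D19 (9.18), 378 bp from an end of FRYL (8.73) and inside SGMS2 (7.94).

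Few regions lay at gene ends. Of the FOSL2 summits 144 lay no more than 1000 bp off either end of a protein-coding gene, which is 4.64% (3.95 to 5.44) against 6.81% over all autosomes and 6.91% over the other 21, a difference of -2.27 points (-2.98 to -1.45). Of the JUNB summits 106 were, which is 8.83% (7.36 to 10.6) against 12.8% over all autosomes and 13% over the others. JUNB-only regions held much of this: 52 of 174, or 29.9% (23.6 to 37.1), were at a gene end, against 28.2% elsewhere. Shared JUNB regions were there in 5.26% of cases, against 8.67% elsewhere. Inside genes lay 47.9% of the chromosome 4 FOSL2 summits, against 49.3%, and 50.1% of the JUNB summits, against 49.8%. The median FOSL2 summit was 49.0 kb from a gene end, against 31.0 kb elsewhere.

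Chromosome 4 is poor in genes, with 770 protein-coding genes or 4.05 per Mb, against 6.84 on the others, the third lowest of the 22. Per gene it had 4.03 FOSL2 regions, against 3.85 elsewhere, and 1.56 JUNB regions, against 2.08. Over the 21 other autosomes the FOSL2 share had a Pearson correlation of 0.56 with genes per Mb, as a description of 21 points from the same libraries. Chromosome 4 had 16.3 FOSL2 regions per Mb, against 24.3 on the straight line through the others at its gene density, a residual of -7.93, with the others between -9.54 and 6.12. Its FOSL2 share had a residual of -8.12 points, with the others between -2.34 and 2.65. For JUNB the residual was -6.22 regions per Mb (others -5.42 to 4.05) and 5.40 points of share (others -3.27 to 5.50). The share of FOSL2 summits at gene ends lay on the line, with a residual of 0.02 points. Set against only the 5 autosomes nearest in gene density (chromosomes 18, 8, 5, 21 and 13), chromosome 4 had a FOSL2 share that differed by -7.53 points (-9.37 to -5.65), and the difference at gene ends was -0.15 points (-0.94 to 0.72).

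The short arm and the long arm were alike in regions per Mb. The short arm, taken as the part below 50 Mb, had 815 FOSL2 regions and the long arm 2290, which is 16.3 per Mb on each. The FOSL2 share was 31.0% (28.0 to 34.3) on the short arm and 33.5% (31.6 to 35.5) on the long arm, a difference of -2.49 points (-6.15 to 1.28), and at equal fold it was -0.50 points (-3.58 to 2.76). JUNB had 308 regions on the short arm (6.16 per Mb) and 892 on the long arm (6.36 per Mb), of which 82.5% (77.8 to 86.3) and 86.5% (84.2 to 88.6) were shared, a difference of -4.08 points (-9.17 to 0.45). For JUNB the short arm lay -3.65 points from the share expected from the long arm at equal fold. At equal height it lay -4.77 points from an expected 87.2%, which is above the short arm's interval. The short arm was denser in genes, with 4.98 per Mb, against 3.72 on the long arm, and 5.40% of its FOSL2 summits lay at gene ends, against 4.37%. With the first 10 Mb left out, the arm difference in FOSL2 share was -5.03 points (-8.92 to -0.95). The last FOSL2 region of the short arm (chr4:49513284-49513509) had a fold of 3.48 and was not shared, and the first of the long arm (chr4:51895678-51896494) had a fold of 11.8 and was shared.

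Windows within the chromosome ran from 27 to 126 FOSL2 regions over the 38 full windows of 5 Mb. Of the 36 windows with at least 50 FOSL2 regions, 32 had a share below the 41.8% of the other autosomes, which is 88.9% against 52.8% of 475 such windows elsewhere, and in 12 the upper bound of the interval lay below it. The chromosome was chosen for its low share, so low shares in its windows follow in part from the choice and are no separate support. Shares ran from 23.3% to 48.4% with a median of 32.0%. The highest share was in window 2, counted from the end of the short arm, with 44 of 91 regions (48.4%, 38.4 to 58.5). There SORCS2, a sorting receptor gene, held 18 FOSL2 and 12 JUNB summits. Window 21 had 43.8% (33.4 to 54.7), with 8 FOSL2 and 4 JUNB summits in MANBA, a lysosomal mannosidase gene, and window 32 had 42.5% (32.7 to 53.0), with 12 and 8 in PDGFC, a platelet-derived growth factor gene, and 10 and 3 in RAPGEF2. The lowest shares were in window 5 at 23.3% (16.2 to 32.3), window 19 at 24.6% (16.0 to 36.0) and window 17 at 25% (18.0 to 33.6). Genes in these windows held unequal numbers of FOSL2 and JUNB summits: 17 and 4 in KCNIP4 and 15 and 2 in the axon guidance gene SLIT2 (window 5), 24 and 3 in CCSER1 and 11 and 6 in PDLIM5 (window 19), and 16 and 1 in CFAP299 and 8 and 4 in WDFY3 (window 17). WDFY3 thus held the same numbers as MANBA in window 21.

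Most FOSL2 regions were in window 34, with 126 and a share of 38.1%, where PALLD, which encodes the actin-binding protein palladin, held 16 FOSL2 and 10 JUNB summits. Window 31 followed with 119, where TRIM2 held 14 and LRBA 13 FOSL2 summits, and then window 17 with 116. Fewest were in window 13, with 27 FOSL2 and 5 JUNB regions and 12 of the FOSL2 summits in ADGRL3. Window 27 had 49 FOSL2 and 9 JUNB regions and window 24 had 50 and 20. Windows with many genes had more regions of either factor, with a Pearson correlation of 0.41 for FOSL2 and 0.61 for JUNB over 38 windows. The FOSL2 share correlated with genes at 0.31 and with median FOSL2 height at 0.48 over 36 windows. These are descriptions, since all windows come from the same libraries and neighbouring windows may be alike in ways that were not measured.

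**Figure D4:**
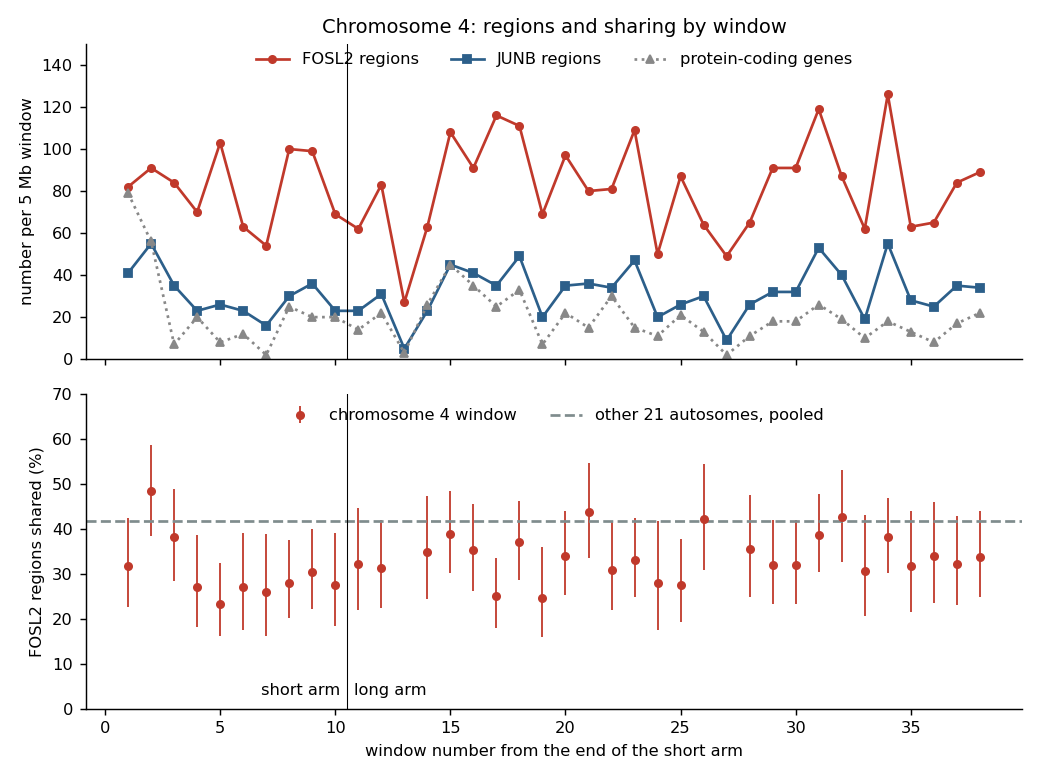
FOSL2 regions, JUNB regions and protein-coding genes in each full 5 Mb window of chromosome 4 (top) and the share of FOSL2 regions that overlap a JUNB region in windows with at least 50 FOSL2 regions (bottom), by window number from the end of the short arm. Bars are 95% Wilson intervals, the dashed line is the 41.8% of the other 21 autosomes and the upright line parts the arms; 32 of the 36 points lie below the dashed line.

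Near genes, a region was counted if it reached to within 10 kb of either end of a protein-coding gene. A FOSL2 region was near 432 of the 770 genes of chromosome 4 (56.1%), against 72.1% of genes elsewhere, and a JUNB region near 247 (32.1%), against 58.5%. A shared FOSL2 region was near 25.1% of the genes, against 45.4%, and 40.4% had neither factor, against 22.3%. Neighbouring genes can count the same region. The gene lists below are described by counts and were not tested. They stand beside 56.1% (FOSL2), 32.1% (JUNB), 25.1% (shared) and 40.4% (neither) of all genes.

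Genes for secreted signals included the EGF receptor ligands, of which 4 of 5 had a FOSL2 and 3 of 5 a JUNB region. Epigen (EPGN) had a single shared site with folds of 15.1 (FOSL2, height 194) and 11 (JUNB, height 73), 3940 and 3943 bp from a gene end. Epiregulin (EREG) had 4 FOSL2 and 4 JUNB regions, with highest folds of 13.8 and 9.39, and amphiregulin (AREG) had 3 and 3, all of them shared, with highest folds of 7.89 and 5.73. Betacellulin (BTC) had 1 FOSL2 region of 3.48 and no JUNB region, and EGF itself had none within 10 kb of its ends, though 5 FOSL2 and 3 JUNB summits lay inside the gene. The 3 genes with both factors lie next to each other in window 15, as does BTC.

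Of the 13 CXC chemokine genes, which encode attractants of leukocytes, 8 had a FOSL2 and 6 a JUNB region, and all 6 had a shared site. CXCL6 and PF4V1 counted the same site of 11.8 (FOSL2) and 8.79 (JUNB). CXCL8 had 11.3 and 7.85 at its promoter, and CXCL9, an interferon-induced attractant of T cells, had 12 and 6.75 with summits 174 and 155 bp from a gene end. CXCL3, CXCL5 and CXCL10 had none within 10 kb. Among growth factors, morphogens and their binding proteins 12 of 19 had a FOSL2 and 5 a JUNB region. SMAD1 reached 11.5 and 10.6 at different sites, the fibroblast growth factor receptor gene FGFR3 10.6 and 7.18, PDGFC 6.23 and 5.18, and VEGFC, which encodes a lymphatic growth factor, 8.74 and 4.86. LEF1, a transcription factor of WNT signalling, BMPR1B, FGF5 and FGFBP2 had no region within 10 kb of an end. Inside the genes, BMPR1B held 8 FOSL2 and 2 JUNB summits and LEF1 held 1 FOSL2 summit. FGF2, named after its values were seen, had 3 FOSL2 regions up to 14.2 and no JUNB region.

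Of 18 innate immunity and NF-kappaB genes, 10 were near a FOSL2 region (55.6%, beside 56.1% of all genes) and 2 near a JUNB region (11.1%, beside 32.1%). None was near a shared one (beside 25.1% of all genes). Neither factor was within 10 kb of an end for 7 of the 18, close to the 40.4% of all genes. NFKB1, which encodes a subunit of NF-kappaB, had 1 FOSL2 region of 8.15, and TLR2, a receptor for bacterial lipoproteins named after its values were seen, had 2 up to 12.8. TNIP2, an inhibitor of NF-kappaB, had 1 of each (4.79 and 3.14) at different sites. ALPK1 and CASP6 had none within 10 kb of an end, though ALPK1 held 1 FOSL2 and 1 JUNB summit inside.

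Squamous epithelium, adhesion and cytoskeleton genes were near a FOSL2 region for 18 of 22 and near a JUNB region for 14. A shared FOSL2 region was near 12 of the 22 (beside 25.1% of all genes). FAT1, an atypical cadherin gene, had 4 FOSL2 and 3 JUNB regions, the highest of each (14.1 and 12.4) at the same site. TMPRSS11F had 15 and 10.4 at the promoter printed above. SHROOM3, which encodes an organiser of apical actin, had 11.8 and 9.75, and WDR1, an actin disassembly factor gene, 12.9 and 9.27 at different sites. TMPRSS11E, a further protease gene, had 4.36 and 6.08 at sites that did not overlap. PDLIM3, SORBS2 and TMPRSS11A had none within 10 kb, though SORBS2 held 6 FOSL2 and 2 JUNB summits inside and TMPRSS11A 2 FOSL2 summits.

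Of 8 genes for lipid and prostaglandin metabolism 4 were near a FOSL2 and 3 near a JUNB region, with MTTP, a lipid transfer protein gene, at 11.2 and 6.91. Of 22 genes listed as housekeeping, cell-cycle genes among them, 15 were near a FOSL2 and 10 near a JUNB region. That each of the 22 is read in all tissues was not checked. PAICS reached 15.1 and 11.1 at its promoter, SRP72, a subunit of the signal recognition particle, 12.3 and 8.75, ABCE1, a ribosome recycling factor, 10.3 and 6.89, and HMGB2 6.84 and 5.76 at different sites. CCNA2, CENPE and COX7B2 had none within 10 kb of an end, though CENPE held 2 FOSL2 summits and 1 JUNB summit inside.

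Genes that are typically read in other tissues had lower shares than the 56.1% (FOSL2) and 32.1% (JUNB) of all genes. These lists ran from 27.8% to 40% near a FOSL2 region and from 5% to 16.7% near a JUNB region. The 11.1% of innate immunity genes near a JUNB region lay within that range. Some genes of these lists, such as ADH1A, ADH1B and ADH1C, are neighbours, and the contrast was not tested. Of 22 liver plasma protein and detoxification genes 7 were near a FOSL2 and 3 near a JUNB region, and ADH1A, ADH1B and ADH1C had none. HGFAC, an activator of hepatocyte growth factor, reached 12.8 and 10.3, the glucuronosyltransferase gene UGT2B7 11.6 and 6.12, and the fibrinogen gene FGG 12.6 and 3.61. Of 18 milk, saliva and tooth matrix genes 5 were near a FOSL2 and 3 near a JUNB region, with ENAM at 12.3 and 7.54, DMP1 at 9.94 and 6.55, and the casein genes CSN1S1, CSN2 and CSN3 without any. Of 20 neuronal receptor and adhesion genes 8 were near a FOSL2 and 1 near a JUNB region, PCDH18, a protocadherin gene with 12.8 and 10.7 at a shared site. ADGRL3, FSTL5 and GABRA2 had none within 10 kb of an end, though ADGRL3 and FSTL5 held 12 and 10 FOSL2 summits inside.

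**Figure D5:**
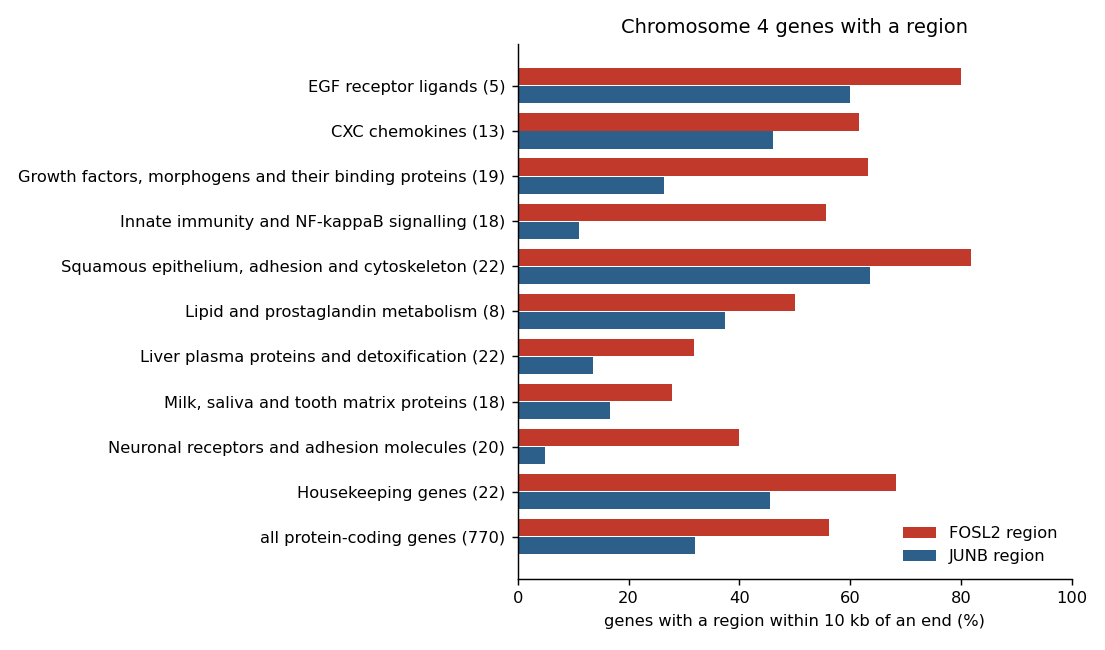
Share of genes in each list of chromosome 4 genes with a FOSL2 region (red) or a JUNB region (blue) within 10 kb of an end, with the number of genes in brackets and all 770 protein-coding genes at the bottom. FOSL2 bars run from 27.8% for milk, saliva and tooth matrix genes to 81.8% for squamous epithelium genes, beside 56.1% of all genes, and JUNB bars from 5% for neuronal genes to 63.6%, beside 32.1%.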

How the data were processed

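The submitters' processing notes name Bowtie2, SAMtools 1.8, Picard 1.89, MACS2, deepTools and hg38, without order or options. For the control used and the rule that combined 3 libraries into 1 list per factor, nothing is given in the sources used here. Every deposited list gives, per region, a whole-number score, a linear fold enrichment (column 7, a ratio), a −log10 p, a −log10 q and a deposited summit offset. Levels of fold and height were compared within a list only; ratios and correlations over overlapping pairs were compared between chromosomes. Genes and promoters came from RefSeq tables of GRCh38.p14, whose chromosome coordinates are those of hg38, and a chromosome's length was its highest annotated position.

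From these were computed overlaps of at least 1 bp, shares, densities, recovered heights and backgrounds, and values standardised over deciles, with Python 3.11.15, numpy 2.4.6, pandas 2.3.3, scipy 1.17.1 and matplotlib 3.10.9, after checks on simulated data. Members and lists were chosen with earlier results of these data known. The genes named were the 4 of each list with the highest JUNB fold among those with both factors, up to 3 without a region in alphabetical order, a few fixed signalling and epithelial genes, the 5 regions of highest fold of each class, and the genes with most summits in the 3 extreme windows of each kind. Some genes selected this way are left out here.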

Additional observations from a re-analysis of the deposited data

How the results depend on the processing

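No paired analysis was possible because each list stands for all 3 libraries, and for the same reason no replicate could be left out. Of 111 alternative values, 70 stayed within the interval of the reported value (within 1.5 times for counts), 40 moved outside it and 1 turned round; the cause was not tested. The alternatives with recovered height or background and that with start sites were chosen after seeing the data. The FOSL2 gap at equal fold, -17.5 points, was negative in all of them and ran from -20.2 points (regions of at least 400 bp) and -19.9 (10000 regions of highest fold) through -15.1 (5 autosomes of nearest gene density), -13.5 (fold by width) and -9.52 (deciles of −log10 q) to -3.44 (height), -1.64 (fold and background, -3.27 to 0.034) and -0.95 (height and background, -2.58 to 0.72), the last 2 with intervals that hold 0. The JUNB difference at equal fold, -0.09 points, was -8.80 with a reciprocal overlap of 50%, and 14.2 (10000 of highest fold), 5.19 (−log10 q), 11.3 (height), 4.42 (height and background) and 2.80 (fold and background). The raw JUNB difference, 7.38 points, was 1.41 with reciprocal overlap, 2.24 at a −log10 q of at least 10, 3.29 at 400 bp, 5.06 against the 5 autosomes and 19.95 in the 10000 of highest fold. That last choice also gave a raw FOSL2 difference of -14.2 points, an arm difference of 4.01, a residual from gene density of -14.3, a gene-end difference of -0.14, log2 fold differences of 0.11 (FOSL2) and 0.082 (JUNB), 31 of 167 listed genes with a FOSL2 region, against 91, no window with 50 regions, and density ratios of 1.29 for FOSL2, the value that turned round, and 0.728 for JUNB. Density ratios for FOSL2 and JUNB were 0.647 and 0.484 at a −log10 q of at least 10, 0.733 and 0.557 against the 5 autosomes, and 0.697 and 0.499 per occupied 100 kb bin. Log2 fold differences were 0.22 and 0.23 against the 5 autosomes, and that of JUNB was 0.23 at a −log10 q of at least 10. The gene-end difference was -0.15 against the 5 autosomes, -4.55 within 2500 bp, -3.03 with ends of all annotated genes and -1.09 with start sites. Background was matched in 5 classes and only down to its floor, so those matches are partial. Depth per library is unknown, and a region missing from the JUNB list is only not listed there, which does not show it to be unbound.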

Other observations

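Some long genes held many FOSL2 summits inside them, at densities above, near and below that of the chromosome. These genes were picked after their values were seen, by the number of FOSL2 summits inside them. INPP4B, which encodes a phosphoinositide phosphatase, held 31 FOSL2 and 15 JUNB summits over 823.4 kb, or 37.6 FOSL2 summits per Mb, against 16.3 FOSL2 regions per Mb over the whole chromosome. RBM47, an RNA-binding protein gene, held 17 FOSL2 and 7 JUNB summits over 207.6 kb, or 81.9 FOSL2 summits per Mb, and SHROOM3 held 18 and 6, or 51.7 per Mb. TENM3, with 20 and 8 (14.8 FOSL2 summits per Mb), and MARCHF1, with 19 and 5 (22.1 per Mb), had no region within 10 kb of either end. CCSER1 held 24 and 3 over 1477.9 kb, or 16.2 FOSL2 summits per Mb, and KCNIP4 held 17 and 4, or 13.9 per Mb. SORCS2 held 18 and 12, or 32.7 per Mb.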
